A study of Aspergillus nidulans with 12 samples.

Results

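The genes that build the polysaccharides of the cell wall were followed in mycelium of the filamentous fungus Aspergillus nidulans. They are 9 genes chosen by their identifiers out of the 7729 genes that the deposited tables list, and all 9 had a mean above 0 in both tables. There are 6 chitin synthase genes, namely chsA (AN7032), chsB (AN2523), chsC (AN4566), chsD (AN1555), csmA (AN6318) and csmB (AN6317). The others are the beta-glucan synthase gene fksA (AN3729) and the alpha-glucan synthase genes agsA (AN5885) and agsB (AN3307). The RefSeq annotation of assembly ASM1142v1 uses other symbols for most of them. There AN7032 is chsB, AN2523 is chsG, AN4566 is chsA, AN1555 is chsF, AN6318 is chsE, AN5885 is ags2, AN3307 is ags1, and AN3729 has no symbol, so the identifier should be taken as the name of record.

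RNA was sequenced from 4 strains with 3 biological replicates each, 12 libraries in all, after growth in liquid minimal medium. The strains kaeA19 and kaeA25 carry short in-frame deletions in kaeA, the gene of a subunit of the tRNA-modifying KEOPS complex, and wt4 and wt5 are their kaeA+ controls. All strains carry the proline marker proA6. The labels give pabaA9 and a biA allele for kaeA19 and wt4, with the biA number differing between libraries, and adF9, yA2 and phenA2 for kaeA25 and wt5. For kaeA19 the study's methods name another pabaA allele. The study describes the growth of both mutants as slow. The tables hold no values per library. What is described here is the authors' mean of normalized fragments, 1 value per gene for the 6 libraries of kaeA19 and wt4 together and 1 for the 6 libraries of kaeA25 and wt5 together. Mutant and control are therefore pooled in every value below, and no level of a single strain and no effect of a kaeA allele is given. No SD can be attached to these means, and no test was run.

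The wall of A. nidulans is a layered network of chitin, beta-glucan and alpha-glucan around each hypha. Chitin synthases join N-acetylglucosamine from UDP-N-acetylglucosamine into chains and push them through the plasma membrane. They fall into classes that differ in structure and in site of action. The beta-glucan synthase works in the same membrane, while alpha-glucan lies mostly in the outer wall.

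The tables were checked first against the labelled tissue and for coverage. The listed means summed to about 22310300 in the kaeA19 and wt4 table and to about 21992800 in the kaeA25 and wt5 table. How deeply any single library was sequenced cannot be read from them. Genes active in growing cells were high in both tables, from benA (AN1182, beta-tubulin) at 30931 and 25345 to gpdA (AN8041, a glycolytic enzyme) at 131609 and 121310. Of 7 genes of asexual spore formation, 4 were listed, with means from 25.9 to 214 and from 51.8 to 221, the highest being the conidial laccase gene yA (AN6635) in both tables. Those 4 were wetA, abaA, wA and yA. The kaeA25 and wt5 strains carry the marker yA2 in yA itself, so its means are not like for like. The defining spore genes brlA, rodA and dewA were not analysed here, so the check for spores lacks them.

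Most of the synthase genes were among the strongly covered genes of the mycelium. In either table, 8 of the 9 had a mean above that of the median gene, which was 932 and 915, and 6 of the 9 were above the 90th percentile of all genes. Together they held 0.460% of the normalized fragments of all listed genes in the kaeA19 and wt4 table and 0.463% in the kaeA25 and wt5 table. These are fragments and not amounts of transcript per length, since the gene lengths of the authors' annotation were not used here. A long gene collects more fragments than a short one at the same level, so the places given below are not an order of transcript abundance.

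**Figure D1:**
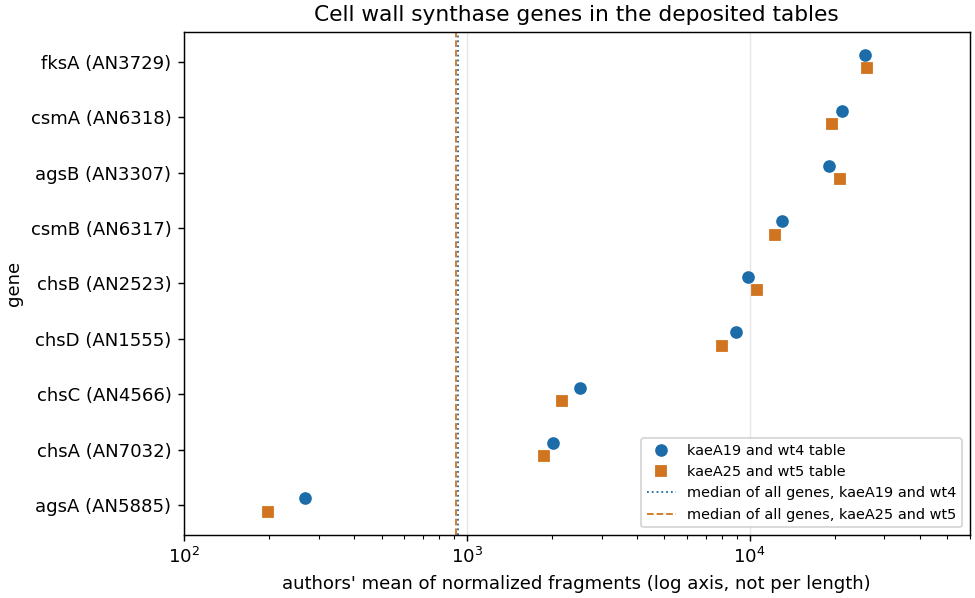
The authors' mean of normalized fragments is plotted on a log axis for each of the 9 genes, with circles for the kaeA19 and wt4 table and squares for the kaeA25 and wt5 table. Vertical lines mark the median of all listed genes (932 and 915), and agsA alone lies to the left of both.

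The class V and class VI synthase genes csmA and csmB gave the most fragments of the chitin synthases. Their proteins join a chitin synthase to a myosin-like motor domain and are known for their part in tip growth and wall integrity. The mean of csmA was 21222 in the kaeA19 and wt4 table and 19603 in the kaeA25 and wt5 table, above 98.1% and 98.0% of all listed genes. The mean of csmB was 12996 and 12315, above 96.4% and 96.2% of genes. In the RefSeq order of genes csmA and csmB are next neighbours. Between them they held 59.4% of the chitin synthase fragments in the kaeA19 and wt4 table and 58.5% in the kaeA25 and wt5 table, and the fragments of csmA per fragment of csmB stood at 1.63 and 1.59.

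The class III gene chsB, which A. nidulans needs for normal hyphal growth, had a mean of 9861 in the kaeA19 and wt4 table and 10599 in the kaeA25 and wt5 table. It was the only chitin synthase gene with the higher mean in the second of these. The class IV gene chsD had 8972 and 8021. Fragments of chsB per fragment of chsD were thus 1.10 in the one table and 1.32 in the other. Both genes lay above the 90th percentile of all genes in either table, with 94.8% and 95.4% of genes below chsB and 94.2% and 93.5% below chsD.

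The class I gene chsC and the class II gene chsA, which have overlapping roles in septa and in conidiophores, had the fewest fragments of the chitin synthases. The mean of chsC was 2513 and 2178, and that of chsA was 2021 and 1874, in the kaeA19 and wt4 table and the kaeA25 and wt5 table in turn. They still lay above 76.1% and 73.7% of all genes for chsC and 70.8% and 70.0% for chsA. The pair held 7.87% and 7.42% of the chitin synthase fragments.

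The beta-glucan synthase gene fksA had the highest mean of the 9 in both tables. It stood at 25602 in the kaeA19 and wt4 table and at 26115 in the kaeA25 and wt5 table, above 98.6% and 98.8% of all genes. It alone made up 24.9% and 25.7% of the fragments of the 9 genes.

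The alpha-glucan synthase genes lay far apart. The mean of agsB, the gene of the main alpha-glucan synthase of vegetative hyphae, was 19169 in the kaeA19 and wt4 table and 20867 in the kaeA25 and wt5 table. The mean of agsA, which is known for a minor part in alpha-glucan synthesis, was 267 and 198. So agsB held 98.6% and 99.1% of the alpha-glucan synthase fragments, or 71.7 and 105 fragments per fragment of agsA. Only 24.9% and 22.0% of all listed genes had a mean below that of agsA. Means above 0 began at 11.8 and 11.2 in these tables, and no library's share in the low mean of agsA is known.

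**Figure D2:**
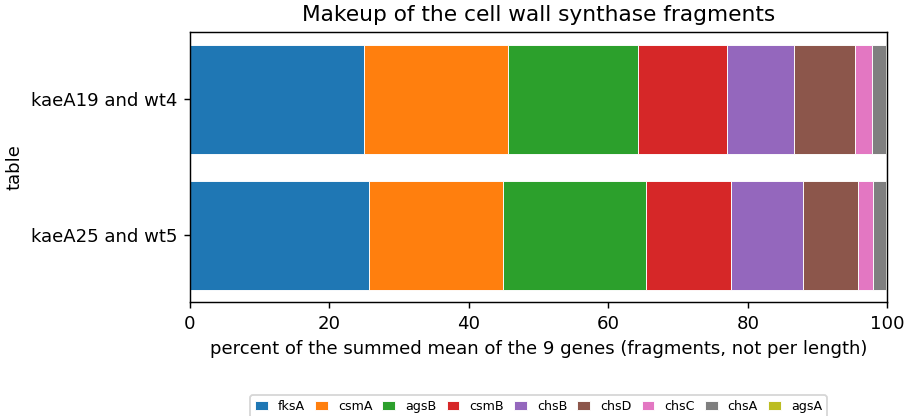
Each bar divides the summed mean of the 9 genes into the percentage held by each, with 1 bar per table and genes ordered by their mean in the kaeA19 and wt4 table. The fksA segment is 24.9% and 25.7%, the segments keep similar widths between the bars, and agsA at 0.260% and 0.195% is too thin to see.

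Chitin synthase genes held 56.1% of the fragments of the 9 genes in the kaeA19 and wt4 table and 53.6% in the kaeA25 and wt5 table, and alpha-glucan synthase genes held 18.9% and 20.7%. Ranked by listed mean, 7 of the 9 genes had the same place in either table, from fksA at the top through csmB, chsB, chsD, chsC and chsA to agsA. The exceptions were csmA and agsB, which changed places. Their means lay near each other, and whether they differ beyond the spread between libraries was not tested.

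The level of each gene was then set across the tables, where its length cancels. Whether the tables were normalized together or separately is not known. The strain background, with its markers, changes with the table, as does the kaeA allele of the mutant libraries. These cannot be told apart. The value used is the log2 ratio of the mean in the kaeA25 and wt5 table to that in the kaeA19 and wt4 table, with the median of the 7283 genes above 0 in both set to 0. As listed, that median was -0.04.

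The synthase genes had similar means in both tables, apart from agsA. Their median absolute log2 ratio was 0.12 over all 9, agsA included, against 0.21 over all 7283 genes. The same measure was 0.16 over the 3485 genes with a mean of at least 1000 in both tables. Of the 9 genes, 8 reach that level and agsA does not, so the 0.12 and the 0.16 are not over like sets. The ratios of 8 of the 9 genes lay between the 25th and 75th percentiles of all genes, which were -0.22 and 0.21. Set against the 3485 strongly covered genes, whose 25th and 75th percentiles were -0.16 and 0.16, this held for 6 of the 8. This is a description of pooled means, and strongly covered genes vary less in general.

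The genes higher in the kaeA25 and wt5 table were agsB at 0.17, chsB at 0.15 and fksA at 0.07 on the centred log2 scale. The lower ones were csmB at -0.03, chsA at -0.07, csmA at -0.07, chsD at -0.12 and chsC at -0.16. On a linear scale agsB was 1.12 times and chsC 0.893 times its level in the other table, which are the widest of the 8 in each direction. The chitin synthase genes thus stood on both sides of 0, with chsB above it and the other 5 below. Whether any of these ratios differs from 0 beyond the spread between libraries was not tested.

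The largest difference was that of agsA, at -0.39, or 0.764 times the level in the kaeA19 and wt4 table. It is also the gene with the fewest fragments. Among the 1268 genes with means between 100 and 500 in both tables, the 5th and 95th percentiles of the ratio were -0.82 and 0.73, and 16.6% of these genes had a lower ratio than agsA. The alpha-glucan synthase genes therefore had ratios of opposite sign, and the size of either against the spread between libraries was not tested.

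**Figure D3:**
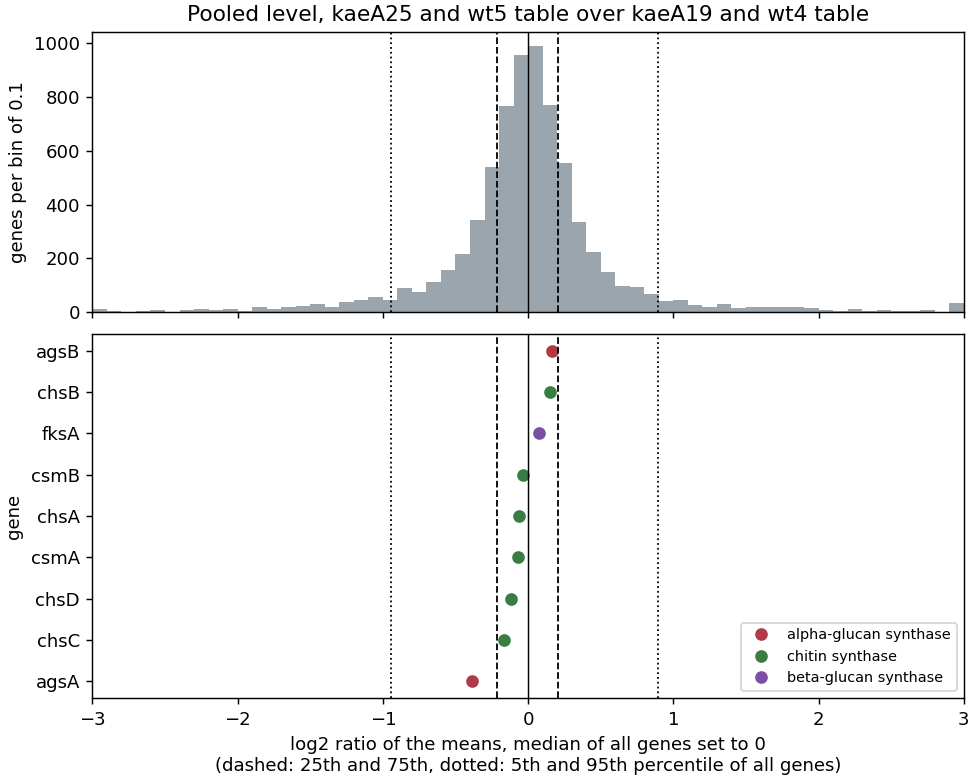
The upper panel is a histogram of the centred log2 ratio of the means (kaeA25 and wt5 over kaeA19 and wt4) for 7283 genes in bins of 0.1, with the 44 genes beyond 3 in either direction placed in the end bins. The lower panel shows the 9 genes on the same axis, where 8 fall between the dashed lines at -0.22 and 0.21 and agsA lies at -0.39.

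The genes that supply the synthases with sugar nucleotides were all well covered. For chitin these were gfaA (AN10709), whose enzyme makes glucosamine-6-phosphate, pcmA (AN4234) and ungA (AN9094), whose enzyme makes UDP-N-acetylglucosamine. The mean of gfaA was 36364 and 35199, the highest of the 3, and that of pcmA 6997 and 7716, the lowest. Their centred log2 ratios ran from -0.0035 for gfaA to 0.32 for ungA, with a median of 0.18. For glucan, galF (AN9148), whose enzyme makes UDP-glucose, stood at 21074 and 15348, and pgmB (AN2867), for phosphoglucomutase, at 15869 and 13161. Their ratios were -0.41 and -0.23, both below the median gene.

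The amylase-like genes amyD (AN3308) and amyG (AN3309), listed here together with agsB, were both higher in the kaeA25 and wt5 table. In the RefSeq order amyD is the next neighbour of agsB on one side, while AN3306 on the other side was not looked at. The identifier of amyG comes after that of amyD, and its place was not checked here. The mean of amyD was 917 and 1324, and that of amyG 554 and 1091, in the kaeA19 and wt4 table and the kaeA25 and wt5 table in turn. Their centred log2 ratios were 0.57 and 1.02, against 0.17 for agsB. That of amyG was above the 95th percentile of all genes, 0.89. No source used here states strand-specific counting, and reads from overlapping neighbours may be shared between them. Whether these genes overlap was not tested.

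Genes that reshape or break down the wall were mostly lower in the kaeA25 and wt5 table, with 5 of the 6 listed below the median gene and a median ratio of -0.47. The beta-glucosidase-like gene btgE (AN1551) had the highest mean of this list in the kaeA19 and wt4 table, 27362, against 16113 in the other. The glucanosyltransferase gene gelA (AN7657) had the highest in the kaeA25 and wt5 table, 20097, against 25860. The exception was the chitinase gene chiA (AN8241), with 298 and 959, a ratio of 1.73. No library's share in these chiA means is known, and their difference was not tested against the spread between libraries. The chitinase gene chiB (AN4871) had the lowest in the kaeA25 and wt5 table, 835, against 1221. All 3 genes of growing cells used in the first check were below the median gene too, with a median ratio of -0.24. The mixed-linkage glucan synthase gene celA (AN8444), a glucan synthase outside the 9, had 2412 and 1424, a ratio of -0.72, lower than that of any of the 9.

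The wall integrity pathway, in which Wsc sensors act through protein kinase C on a MAP kinase cascade, had 7 of 7 genes listed. The sensor gene wscA (AN5660) had the highest mean, 137022 and 92578, and the sensor gene wscB (AN6927) the lowest, 348 and 516. Of the 7 ratios, 3 were above and 4 below the median gene, from -0.52 for wscA to 0.61 for wscB, with a median of -0.05.

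**Figure D4:**
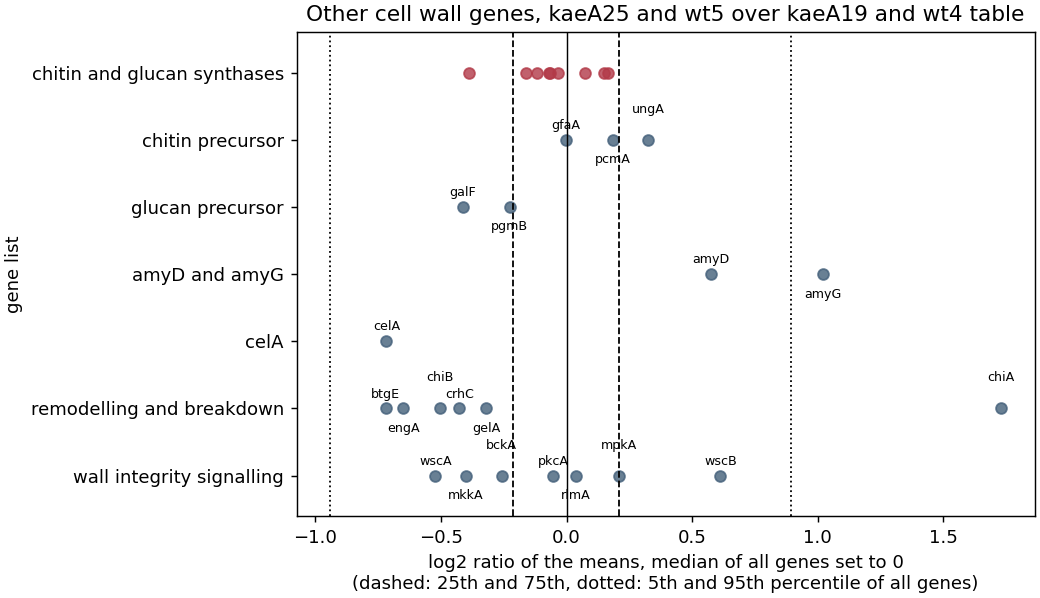
Each point is the centred log2 ratio of the means (kaeA25 and wt5 over kaeA19 and wt4) of 1 gene, with 1 line per gene list. The 9 chitin and glucan synthase genes lie between -0.39 and 0.17, and of the other wall genes amyG at 1.02 and chiA at 1.73 lie beyond the dotted line at 0.89, the 95th percentile of all genes.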

How the data were processed

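Libraries were made from rRNA-depleted RNA and read from both ends. The authors aligned reads to the FGSC A4 genome from AspGD with TopHat 2 and Bowtie2, kept pairs in the correct orientation and counted fragments per gene with ShortRead. The deposited mean of a gene is a signal, the authors' mean over the 6 libraries of a mutant and its control of fragment counts after scaling. How the scaling was done is uncertain, since the study's methods name edgeR with normalization for library size, while the column names of the authors' tables are those of DESeq2. The 5 other columns of each table hold the authors' own comparison of mutant and control (log2 fold change with standard error, statistic, p-value, adjusted p-value) and were not used.

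From the means, the percentage of listed genes with a lower mean, shares of summed means, and log2 ratios between the tables were computed in Python 3.11.15 with numpy 2.4.6 and pandas 2.3.3. Ratios were centred on the median of genes above 0 in both tables. The arithmetic of the ratio step was checked on simulated data without noise, which does not test the choice of centre. A list was described by its counts and median beside those of all genes. Gene symbols are those of the list of 9 and of the lists used here, and all 9 and all 32 list genes matched RefSeq (ASM1142v1) by locus tag, which served for names and neighbours only. The assembly differs in name from that of the authors, so no coordinates or lengths were taken from it.

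All 9 genes are named. Of each other list the genes with the highest and the lowest mean in each table and those with a ratio outside the 5th to 95th percentile of all genes are named. The gene ungA was added after its values were seen. Some genes of these lists are not reported here. The members and lists were chosen with earlier results of these data known. A planned order per coding length was not made, for want of lengths. The precision of a mean is unknown, since neither depth nor counts per library were used.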

Additional observations from a re-analysis of the deposited data

How the results depend on the processing

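Without centring, the median log2 ratio of the 9 genes was -0.11, and with equal totals of the listed means it was -0.089, against -0.066 as reported. The median of genes with a mean of at least 1000 in both tables moved it by less than 0.01. Each of these 3 settings moves all genes by the same amount, so they test only the zero point. None of the shifts was large enough to change the sign of any of the 9 ratios. With genes at 0 left out, the largest shift in a percentage of genes with a lower mean was 2.67 percentage points. As a yardstick, 15 of 18 percentages lay within the 95% Wilson interval of the reported share. Outside it were those of agsA, from 24.9% to 22.3% for kaeA19 and wt4 and from 22.0% to 20.2% for kaeA25 and wt5. That of chsA for kaeA19 and wt4, from 70.8% to 69.8%, was outside too. These shifts are fixed by the number of genes at 0 and the place of the gene, so they give no measure of precision. Leaving out a replicate could not be done, and neither could an order per coding length or per gene span. No paired analysis was possible because the columns used carry no replicate and no mutant was compared with its control. Of the 9 genes agsA has the fewest fragments and so the least precise ratio by counting error alone.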

Other observations

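The lowest values of the tables leave a gap. For kaeA19 and wt4, 265 genes had a mean of 0 and the next mean was 11.8. For kaeA25 and wt5, 181 genes had a mean of 0 and the next was 11.2. Over 6 libraries these next means come to 70.7 and 67.1 normalized fragments, which is what a single library would hold if the others were at 0. Among the spore formation genes, wetA (AN1937) lay near this limit in the kaeA19 and wt4 table, at 25.9. In the kaeA25 and wt5 table wetA stood at 83.9, a centred log2 ratio of 1.74. The means of abaA (AN0422), 57.3 and 51.8, were above the smallest means but below the 70.7 and 67.1 of a single library on that reading. How many libraries held fragments of wetA or abaA is not known.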
